A study of Mus musculus with 8 samples.

Results

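Type 1 effector CD4 T cells were examined in the pancreas of diabetic NOD mice, whose islets are attacked by their own T cells. A cell was counted as type 1 when it passed the cell filters (at least 500 genes, under 10% mitochondrial UMIs and at least 2 UMIs over 6 T cell genes), held at least 1 UMI of Cd4 and none of Cd8a, Cd8b1 or Foxp3, and held at least 1 UMI of at least 2 of 6 markers, Ccl5, Cxcr6, Ifng, Tbx21, Cxcr3 and Nkg7. The members were thus chosen by measured UMIs of these genes. A UMI is a molecular barcode that counts 1 captured mRNA molecule. This rule found 1357 cells, among 28119 CD4 Foxp3-negative cells and 77486 cells kept in all 8 libraries. The comparison cells were 22442 CD4 Foxp3-negative cells with none of the 6 markers.

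The labels describe all mice as female NOD mice with spontaneous diabetes, aged 3 to 4 months (3 to 5 months in the treatment protocol). The active and onset libraries came from untreated mice with blood glucose above 600 mg/dl and of 250 mg/dl, harvested on day 1, with 1 library each. The other 6 came from new-onset mice (200 to 300 mg/dl) given daily vehicle (ethanol, Tween 20 and PEG300) or PPCA, with 1 library per arm on each of days 2, 3 and 4. PPCA combined Nutlin-3 at 50 mg/kg, an MDM2 inhibitor that raises p53, with MK-1775 at 25 mg/kg, an inhibitor of the mitotic entry kinase Wee1. The number of mice behind each library is not given in the sources used here, so p-values measure the spread between these libraries only. All cells had been sorted as CD45+ CD3+ TcR-beta+, frozen and processed together.

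Type 1 helper cells are CD4 T cells that make interferon gamma under the transcription factor T-bet, the product of Tbx21. T-bet works with Runx3 and with IL-12 and IL-18 signals, and it raises CXCR3, a chemokine receptor for entry into inflamed tissue. CXCR6 marks T cells held in tissue, CCL5 is a chemokine that draws other leukocytes, and NKG7 is a protein of cytotoxic granules. In NOD mice such cells are a known part of the islet infiltrate.

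The promoters of the marker genes are shown because these genes chose the cells and T-bet and Runx proteins are their textbook regulators. The RefSeq table for GRCm38.p6 had a promoter for 5 of the 6 markers, and Ccl5 was not matched. The 120 bases before each annotated start are printed 5′ to 3′ on the gene's strand, at chr7:43437018-43437137 (plus) for Nkg7, chr9:123806357-123806476 (plus) for Cxcr6, chr10:118440926-118441045 (plus) for Ifng, chr11:97115332-97115451 (minus) for Tbx21 and chrX:101734148-101734267 (minus) for Cxcr3. Capitals mark a match to a T-box core (TCACAC, or GTGTGA on the other strand) or a Runx core (TGTGGT, or ACCACA on the other strand).
Nkg7: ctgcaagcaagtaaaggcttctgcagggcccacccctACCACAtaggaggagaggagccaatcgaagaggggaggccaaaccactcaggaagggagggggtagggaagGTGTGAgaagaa
Cxcr6: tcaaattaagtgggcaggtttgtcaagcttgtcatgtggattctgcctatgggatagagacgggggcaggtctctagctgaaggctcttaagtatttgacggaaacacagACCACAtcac
Ifng: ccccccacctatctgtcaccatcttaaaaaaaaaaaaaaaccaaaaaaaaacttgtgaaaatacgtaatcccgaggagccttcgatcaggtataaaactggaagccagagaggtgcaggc
Tbx21: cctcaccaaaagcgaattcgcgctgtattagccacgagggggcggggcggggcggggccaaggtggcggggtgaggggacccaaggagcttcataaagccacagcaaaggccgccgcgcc
Cxcr3: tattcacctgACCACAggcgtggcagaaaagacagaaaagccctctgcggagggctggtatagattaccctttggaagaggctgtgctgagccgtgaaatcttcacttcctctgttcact
Over the 250 bases before the start, the T-box core occurred in Nkg7, from -12 to -7, and in Cxcr3, from -234 to -229, outside the printed stretch. The Runx core occurred in Nkg7 from -83 to -78, in Cxcr6 from -10 to -5 and in Cxcr3 from -110 to -105. Of 32851 promoters, 12.3% held the T-box core and 14.1% the Runx core in that window, and these letters did not occur in it for Ifng or Tbx21.

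Before any result, 4 of the 8 libraries went against their label of female mice. Vehicle on days 2 and 3, and PPCA on days 3 and 4, had 188 to 276 CPM (UMIs scaled to a common total) of Y-linked transcripts and under 1 CPM of Xist. The other 4 held 418 to 622 CPM of Xist and at most 0.167 CPM of Y-linked transcripts. The day 2 and day 4 pairs of PPCA and vehicle each joined a library of one kind to a library of the other, and only the day 3 pair matched. Whether libraries were exchanged was not tested, and an exchange would change every PPCA and vehicle value here, so these words name libraries as labelled. Each library held 36934580 to 67603740 UMIs and 6596 to 12976 kept cells, and any pair of libraries shared at most 0.447% of the smaller one's kept barcodes.

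Every library held type 1 cells. There were 101 in the active library and 256 in the onset library. PPCA libraries held 201, 80 and 287 on days 2, 3 and 4, and their vehicle counterparts 170, 127 and 135. Among the 1357 cells, Nkg7 was detected in 66.7%, Cxcr3 in 60.7%, Ccl5 in 58.0%, Cxcr6 in 44.5%, Ifng in 38.8% and Tbx21, the defining transcription factor, in 12.1%. Exactly 2 markers were found in 706 cells (52.0%), 3 in 319, 4 in 229, 5 in 93 and all 6 in 10. The most frequent pair among cells with exactly 2 was Ccl5 with Nkg7, in 157 cells (22.2%), followed by Cxcr3 with Nkg7 in 99. Just outside the rule, 4320 CD4 cells held exactly 1 marker, which was Ccl5 in 57.8% of them and Nkg7 in 18.7%.

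Genes of CD4 identity that the rule did not use were measured as a check of the label. Zbtb7b, which encodes the CD4 lineage factor ThPOK, averaged 51.0 ± 19.5 CPM in type 1 cells, 52.2 ± 14.5 in cells with no marker and 3.49 ± 1.20 in CD8 cells with at least 2 markers (SD, n = 8 libraries). Cd40lg, the helper ligand for B cells, averaged 114 ± 26.6, 92.2 ± 17.0 and 4.35 ± 2.17 CPM in the same order. A Cd4 UMI was nevertheless present in 8.41% to 23.7% of Cd8-positive T cells per library. The Th17 cytokine Il17a had 0 UMIs in the 1357 cells, which allows a share of up to 0.221% of cells with a UMI and sets no limit on cells that express the gene.

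Markers were also counted in cells that should lack them, as a measure of free RNA. Among 34 cells with B cell markers and no T cell transcript (median 3978 UMIs), 23.5% held a Ccl5 UMI and 2.94% an Nkg7 UMI, and Cxcr6, Ifng, Tbx21 and Cxcr3 were not seen. None of the 34 met the 2-marker rule, which allows a share of up to 8.82%. In CD4 cells the Ccl5 share was 11.7% (median 4921 UMIs), at or below that background, so a lone Ccl5 UMI was not read as expression. Requiring 2 of the other 5 markers gave 1749 genes higher and 1742 lower in the main comparison, against 1682 and 1665 with all 6.

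The 6 markers had these levels in the summed type 1 cells, given as a description because they chose the cells. Ifng ranged from 73.0 CPM in the active library through a median of 134.9 to 476 in the PPCA library of day 4. Ccl5 ranged from 1347 to 3668 CPM (median 2108), with the PPCA libraries of days 2 and 4 at its ends. Nkg7 ranged from 385 to 709 CPM, Cxcr3 from 147.5 to 280.4, Cxcr6 from 171 to 275 and Tbx21 from 10.5 to 50.0. The Ifng range was the widest relative to its median, and the PPCA library of day 4 stood far above the other 7, of which the highest was the vehicle library of day 4 at 240.2 CPM.

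Type 1 cells were first compared with CD4 cells that held no marker, in the same libraries. Effector, chemokine, adhesion and checkpoint genes were higher and genes of naive T cells were lower. Of 10241 genes tested, 1682 were higher (16.4%) and 1665 were lower (16.3%) at an adjusted p under 0.05 (edgeR quasi-likelihood test on summed UMIs, library as block, 8 libraries). The median log2 fold change over all genes tested was -0.02. The groups did not overlap for 799 genes (7.8%). The fit held 13 genes used to choose the cells, and 8 of the higher and 2 of the lower calls were theirs, all 6 markers among the higher. These follow from the rule and are not read as results. Without them 1674 genes were higher and 1663 lower.

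**Figure D1:**
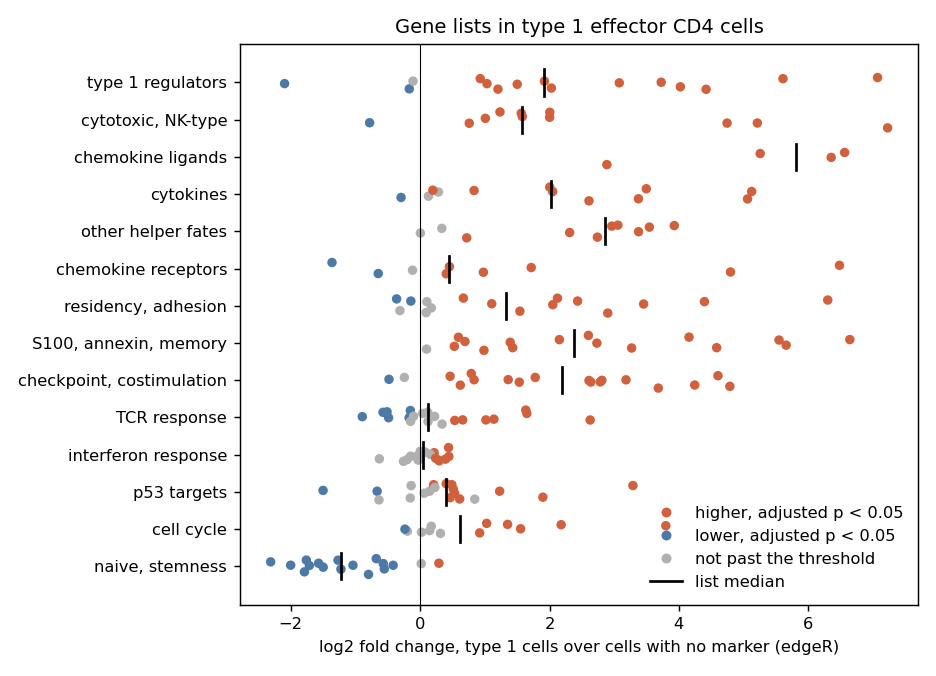
Log2 fold change in type 1 cells over CD4 cells with no marker for the members of 14 gene lists, 1 point per gene tested; orange and blue points passed an adjusted p of 0.05 and bars are list medians. The S100, annexin and memory list lies wholly to the right of 0, and all but 2 genes of the naive list lie to the left.

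Among regulators of the type 1 programme, 12 of 15 genes tested (17 listed) were higher and 2 were lower, with a median log2 fold change of 1.92. Hopx, a homeodomain protein of long-lived Th1 cells, averaged 50.9 ± 13.4 CPM against 0.305 ± 0.146 (log2 fold change 7.07, SE 0.24, edgeR adjusted p = 2.0e-22). The IL-18 receptor chains Il18rap and Il18r1 rose by 5.61 and 2.03 on the log2 scale, and Eomes, a T-box factor related to T-bet, by 4.02. Bhlhe40, needed for cytokine output of helper cells, rose by 4.42, with libraries spread widely at 158 ± 159 CPM. Runx3 and Stat4, the partner of T-bet and the IL-12 signal transducer, rose less, by 1.03 and 0.93. The interferon gamma receptor chains went opposite ways: Ifngr1 rose by 1.20 and Ifngr2, the signalling chain, fell by 2.10, from 46.8 ± 11.4 to 12.5 ± 5.99 CPM.

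Of 11 tested genes of cytotoxic cells (15 listed), 10 were higher and 1 was lower. Gzmk, a granzyme of memory T cells, ranged from 39.0 CPM in the vehicle library of day 2 through a median of 49.8 to 145 in the PPCA library of day 4, against at most 0.709 CPM in cells with no marker. Its log2 fold change was 7.22 (SE 0.23, edgeR adjusted p = 4.8e-23), and 225 of the 1357 cells held a UMI. Gzmb rose by 4.74 at a low level of 4.56 ± 1.62 CPM. Prf1, which encodes the pore-forming protein perforin, was the 1 gene of the list that fell, to 24.5 ± 7.51 from 39.3 ± 9.88 CPM (log2 fold change -0.78). Gzma was not tested, and 227 of its 282 UMIs lay in the vehicle library of day 4, 88 of them in 1 cell.

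All 4 tested chemokine ligands (8 listed) were higher. Ccl4, an inflammatory chemokine, had 362 CPM in the active library and 310 in the onset library. PPCA gave 109, 92.8 and 617 CPM on days 2, 3 and 4, and vehicle gave 19.0, 67.5 and 118. Every one of these exceeded the cells with no marker, which reached 2.63 CPM at most (log2 fold change 6.56, SE 0.20, edgeR adjusted p = 2.0e-23). These sums rested on few cells, because 152 type 1 cells held a Ccl4 UMI and 1 cell held 381 of the 789 UMIs of the PPCA library of day 4. Ccl3 and Xcl1, which attract monocytes and dendritic cells, rose by 6.35 and 5.26 on the log2 scale.

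**Figure D2:**
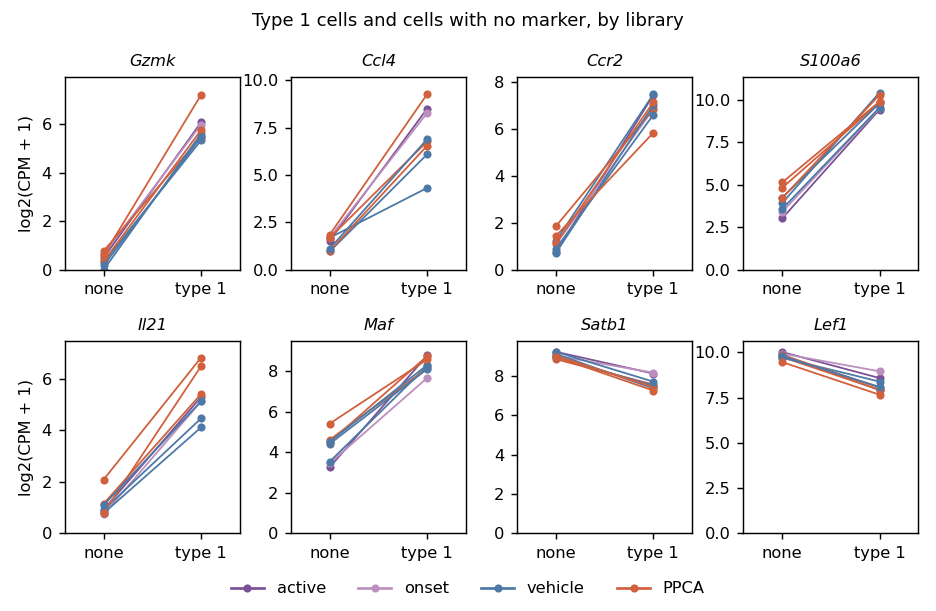
Level of 8 genes as log2(CPM + 1) in summed cells with no marker (left of each panel) and type 1 cells (right), with 1 line per library coloured by group. Gzmk, Ccl4, Ccr2, S100a6, Il21 and Maf were higher in all 8 libraries and Satb1 and Lef1 were lower in all 8.

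Among cytokines, 9 of 12 tested genes (15 listed) were higher and Ltb was lower. Il21, which supports B cells and CD8 T cells, ranged from 16.2 CPM (vehicle, day 3) through a median of 35.8 to 111 (PPCA, day 4), against at most 3.24 CPM in cells with no marker (log2 fold change 5.06, SE 0.21, edgeR adjusted p = 4.0e-20). It was detected in 106 type 1 cells. Tnfsf11, which encodes the RANK ligand, rose by 3.37, Il10, an anti-inflammatory cytokine, by 5.12 and Tnf by 0.83. The Il10 groups overlapped, since the vehicle library of day 2 held no Il10 UMI. Il2 rose by 2.00 at 8.71 ± 6.53 CPM.

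Genes of other helper fates were also higher, with 8 of 10 tested (20 listed) past the threshold and none lower. Maf, a transcription factor of IL-21 and IL-10 producing helper cells, ranged from 204 CPM in the onset library through a median of 312.5 to 442 in the active library, and from 8.69 to 42.1 in cells with no marker (log2 fold change 3.93, SE 0.14, edgeR adjusted p = 1.5e-21). Rora and Tbc1d4 rose by 3.38 and 2.74, Gata3, the Th2 factor, by 0.72, and Cxcr5, the follicular homing receptor, by 3.06 at 8.42 ± 4.19 CPM. Bcl6, the follicular helper factor, gave 0.34 (SE 0.19, edgeR adjusted p = 0.20).

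Chemokine receptors split, with 6 of 9 tested higher and 2 lower. Ccr2, a receptor for monocyte chemokines, ranged from 56.3 CPM in the PPCA library of day 4 through a median of 121.1 to 178 in the vehicle library of day 2, against at most 2.63 CPM in cells with no marker (log2 fold change 6.48, SE 0.17, edgeR adjusted p = 2.7e-25). Ccr7 and S1pr1, used by T cells to enter and to leave lymph nodes, fell by 1.36 and 0.65.

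Of 16 tested genes of residency and adhesion, 10 were higher and 2 were lower. Itgb1, the integrin beta 1 chain, rose from 79.8 ± 42.0 to 945 ± 296 CPM (log2 fold change 3.45, SE 0.12), and its partner Itga4 rose by 1.54. Cd44, a marker of antigen experience, rose by 2.05 and Rgs1, a brake on chemokine signalling, by 2.90. In the list of S100 proteins, annexins and other genes of memory T cells, 15 of 16 tested genes were higher and none was lower. S100a6 ranged from 681 to 1363 CPM (median 898) in type 1 cells and from 7.12 to 34.1 in cells with no marker, and S100a4 rose by 5.55. Lgals3, which encodes galectin-3, rose by 6.64. These groups lay far apart in every library.

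Checkpoint and costimulatory genes were higher for 16 of 18 tested, and Cd27 was lower. Lag3, an inhibitory receptor for MHC class II, ranged from 30.4 to 161 CPM against 1.39 to 7.80 (log2 fold change 4.60, SE 0.19, edgeR adjusted p = 3.7e-20). Pdcd1, which encodes PD-1, rose by 3.68, Cd200 by 3.18, Ctla4 by 2.81 and Icos by 2.61. The Ctla4 groups overlapped, because cells with no marker reached 109 CPM in the PPCA library of day 4.

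The naive and stemness list went the other way, with 15 of 17 tested genes lower and 1, the IL-7 receptor gene Il7r, higher. Igfbp4, a gene of naive T cells, fell by 2.31 on the log2 scale, to 124 ± 54.8 from 542 ± 60.2 CPM (SE 0.11, edgeR adjusted p = 9.2e-19). Lef1, a transcription factor of early T cells, had a median of 267 CPM (201 to 493) against 899.7 (702 to 1033). Lef1 fell by 1.76, Satb1 by 1.57 and Tcf7 by 0.57. Further named genes had log2 fold changes of -2.07 for Pdlim4, -2.04 for Atp1b1, -1.86 for Treml2, -1.79 for Actn1, -1.75 for Plaur and -1.71 for Auts2. Klhdc1 gave -1.68, and Dapl1 averaged 85.1 ± 30.6 against 311 ± 67.5 CPM. The libraries overlapped for Treml2 and Plaur.

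The largest named increase was that of Penk, the enkephalin precursor, at 58.7 ± 29.2 CPM against 0.189 ± 0.220 (log2 fold change 8.10, SE 0.26, edgeR adjusted p = 3.6e-23). Its 419 UMIs came from 48 of the 1357 cells, 3 to 16 in each library. Ifitm2, an interferon-induced membrane protein gene, rose by 5.78 and was detected in 152 cells. Of the interferon response list, 6 of 19 tested genes were higher and none was lower, with a median of 0.04. Of the cell cycle list, 6 of 12 tested genes were higher and 1 was lower. Mki67, the proliferation marker, averaged 15.5 ± 14.6 against 0.945 ± 0.769 CPM and was detected in 56 cells. Of the p53 targets, 10 of 19 were higher, among them Cdkn1a, which encodes the cell cycle inhibitor p21 (log2 fold change 3.29), and 2 were lower, while Mdm2 gave -0.14 (SE 0.09, edgeR adjusted p = 0.23).

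Signs of other cells were measured beside these results. Between 9.90% and 17.3% of type 1 cells per library were among the highest doublet scores, against 2.96% to 9.25% of cells with no marker. Cells were also counted that held more than 1 UMI over 6 B cell or myeloid genes (Cd79a, Cd79b, Ms4a1, Lyz2, Cst3 and Csf1r). They made up 18.1% to 34.8% of type 1 cells and 7.11% to 19.4% of cells with no marker. The share was higher in type 1 cells in all 8 libraries. Among the 1357 type 1 cells, Cst3 was detected in 776 and Cd79b, the next of the 6, in 23, so this share rested mostly on Cst3. The summed level of 16 NK and innate-like T cell genes was 6.75 to 164 CPM (median 47.6) in type 1 cells, with Trdv4 at 0. In cells with no marker it was 9.51 to 19.7 CPM (median 13.5). The sum was higher in type 1 cells in every library but vehicle on day 3 (6.75 against 14.4 CPM). Of these 16, Tcrg-C2 was detected most often, in 63 of the 1357 cells, followed by Tcrg-C4 in 43, Cd160 in 34 and Trdc in 24. Klra1 was detected in 15 cells, Ncr1 in 10 and Klrb1c in 4. The 11 myeloid genes summed to 289 to 409 CPM against 212 to 311, with Csf1r, C1qa and S100a8 at 0 in type 1 cells. The most often detected of them there were Cst3 and Ctss, in 776 and 724 cells. The 10 B cell genes summed to 84.5 to 168 CPM against 119 to 235, and the most often detected in type 1 cells was Ighm, in 446 cells. The 12 pancreas genes summed to 4.75 to 147.5 CPM against 7.74 to 297. Without the high doublet scores and the cells holding more than 1 UMI of the 6 genes above, 1324 genes were higher and 1348 lower. That alternative, named doublets and other cells removed below, thus left out cells largely by Cst3 as well as by doublet score. The part of these signals in single genes was not tested. Cells at the edge of the rule were also measured. Those with exactly 1 marker lay outside it, while those with exactly 2 are 706 of the 1357 type 1 cells. S100a6 had a median of 128 CPM in cells with exactly 1 marker and 483 in cells with exactly 2, Ccr2 had 11.6 and 69.9, and Maf had 73.4 and 304. The Maf value with exactly 2 markers was close to the type 1 median given above.

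Type 1 CD4 cells were next set against 11460 CD8 T cells that also held at least 2 of the markers. They had more transcripts of helper and costimulatory genes and fewer of cytotoxic and NK-type receptor genes. Of 9744 genes tested, 1172 were higher (12%) and 1161 lower (11.9%) by the same edgeR test. Genes used to choose the cells made up 6 of the higher and 6 of the lower calls and are not read as results. The groups did not overlap for 474 genes (4.86%).

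Helper genes were among the named increases, beside other genes. Of the list of other helper fates 4 of 7 tested genes were higher and 0 lower, with a median log2 fold change of 0.91. Il21 averaged 47.8 ± 33.6 CPM against 1.22 ± 2.21 in CD8 cells (log2 fold change 5.34, SE 0.31, edgeR adjusted p = 3.0e-12). Maf was 4.83 higher on the log2 scale, Cd40lg 4.57 and Tnfrsf4, the costimulatory receptor OX40, 4.17. The named genes Ifitm2 and Gpm6b, a membrane protein gene, were 5.25 and 4.63 higher. In the checkpoint and costimulation list 16 of 19 tested genes were higher and 2 lower, with Icos at 2.10, Ctla4 at 1.78, Lag3 at 1.71 and Pdcd1 at 1.49. The 6 genes of CD4 identity were all higher, and 7 of 10 tested cytokines were higher and 1 lower.

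Cytotoxic genes were lower in the CD4 cells for 9 of 14 tested, with none higher. Klrc1, an inhibitory NK receptor gene, averaged 2.76 ± 2.76 CPM against 44.8 ± 19.9 (log2 fold change -4.33, SE 0.23, edgeR adjusted p = 5.7e-13). The related receptor genes Klre1 and Klrc2 were lower by 4.35 and 3.65, Gzmb by 2.20 and Prf1 by 1.80. Eomes was lower by 1.43, with no overlap. Gzmk did not pass the threshold (log2 fold change -0.42, SE 0.18, edgeR adjusted p = 0.11), and neither did Ccl4 (-0.89, SE 0.33, adjusted p = 0.054). Each passed in 6 of the alternatives, among them without the active library (-0.57 for Gzmk and -1.37 for Ccl4). Itgae, which encodes the CD103 integrin of epithelial retention, averaged 4.14 ± 3.61 against 53.1 ± 13.2 CPM, and Lcn4 and Plac8 were lower by 3.90 and 3.61. Of the NK and innate-like T cell list, 8 of 9 tested were lower and none higher. Of 10 tested dissociation and stress genes 6 were higher and none lower, and their sum was higher in type 1 than in CD8 cells in all 8 libraries (2637 to 10550 against 1740 to 8145 CPM). The part of this shift in other genes was not tested.

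The members also differed among themselves. Cells with an Ifng UMI (527) were compared with those without one (830) inside each library. Their median UMIs per library ran from 4055 to 5806 and from 3564 to 6036. Checkpoint and cytokine genes were among those higher in the Ifng-positive cells and naive genes among those lower, in arms gated unequally: a cell with Ifng needs 1 other marker and a cell without it needs 2. Of 5250 genes tested, 121 were higher (2.3%) and 90 lower (1.71%) by the same edgeR test. Of the higher calls 4 were genes used to choose the cells, Ifng, Nkg7, Cd3e and Cd3g, which leaves 117. These 4 are not read as results.

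The split was therefore repeated with at least 2 markers other than Ifng in both arms, a setting chosen after seeing the data. It left 321 and 698 cells in 6 libraries, since the active and the day 3 PPCA library fell below 20 cells, and 68 genes were higher and 45 lower of 5007. Of the higher ones 5 had chosen the cells, Ccl5, Cxcr6, Nkg7, Cd3g and Ifng. Of the 117 and 90 calls of the unequal arms, 49 and 44 were made here too. Checkpoint genes were higher for 7 of 15 tested, cytokines for 2 of 7, and naive genes were lower for 9 of 14. Il21 (log2 fold change 2.06, SE 0.25, edgeR adjusted p = 1.6e-07), Cd200 (1.48), Lag3 (1.51) and Pdcd1 (1.63) were higher, and Il7r (-0.50) and Klf2 (-0.47) were lower. Of the cytotoxic list 2 of 6 tested genes were higher, Gzmk by 0.76 and the NK receptor gene Klrd1 by 0.93. The values that follow are those of the unequal arms.

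Il21 had a median of 96.9 CPM (25.8 to 208) in Ifng-positive cells and 14.8 (8.85 to 37.1) in the others (log2 fold change 2.42, SE 0.21, edgeR adjusted p = 3.8e-12), and it was higher in 8 of 8 libraries. Among the cytokines, 4 of 7 tested were higher and none lower, with Tnfsf8, the CD30 ligand gene, at 1.61, Tnfsf11 at 1.12 and Tnf at 0.79. With equal gates Tnfsf11 (0.48, adjusted p = 0.48) and Tnf (0.70, adjusted p = 0.068) did not pass. Of the checkpoint and costimulation list, 10 of 15 were higher and none lower. Cd200 had a median of 253 CPM (79.8 to 471) against 47.6 (24.1 to 134), and Lag3 and Pdcd1 rose by 1.69 and 1.49. Cybb, a subunit gene of the phagocyte oxidase (not tested with equal gates), rose by 2.70, the neuritin gene Nrn1 by 2.42 and the uncharacterised gene 1700019D03Rik by 2.06. Bhlhe40 rose by 1.06 and Tbc1d4, whose libraries did not overlap, by 1.21. Of 3 tested chemokine ligands 2 rose, Ccl3 by 1.71 and Ccl4 by 1.56, but Ccl4 was higher in 5 of 8 libraries. Calls were lost in 9 of the alternatives for Ccl4, 5 for Tnf, 4 for Tnfsf11, 3 for Ccl3 and 2 for Bhlhe40, and in none that tested them for Il21, Tnfsf8, Cd200, Lag3, Pdcd1, Cybb, Nrn1, 1700019D03Rik and Tbc1d4.

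**Figure D3:**
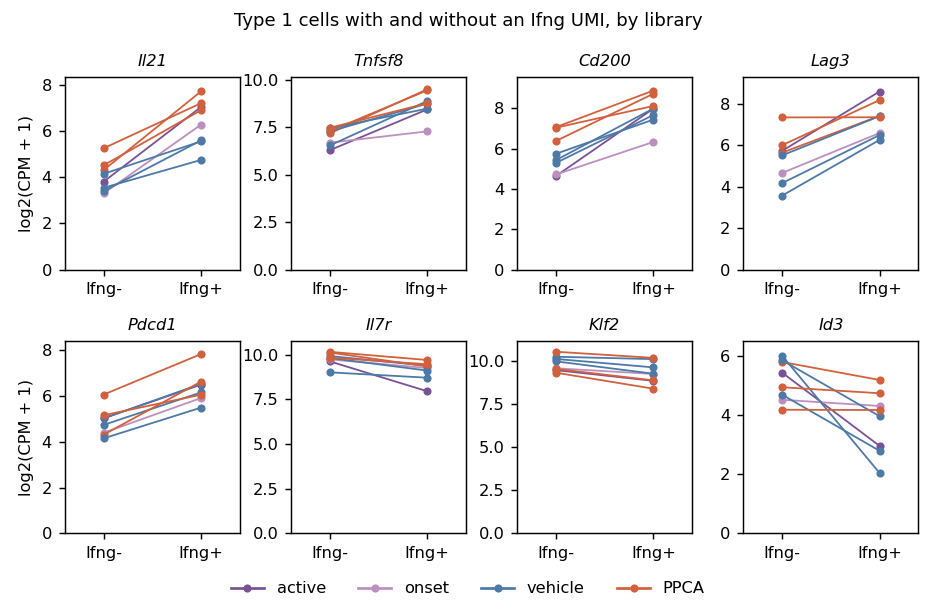
Level of 8 genes as log2(CPM + 1) in type 1 cells without (left) and with (right) an Ifng UMI, with 1 line per library coloured by group. Il21, Tnfsf8, Cd200, Lag3 and Pdcd1 were higher and Il7r, Klf2 and Id3 lower in Ifng-positive cells of each library.

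Of 15 tested naive genes, 10 were lower in the Ifng-positive cells and none was higher. Il7r had a median of 625.5 CPM (246 to 827) against 898 (512 to 1134), and Klf2, which keeps T cells quiescent and recirculating, fell by 0.54. Tmem176b, a membrane channel gene, showed no overlap, at 11.8 ± 5.89 against 41.3 ± 14.8 CPM (log2 fold change -1.88, SE 0.26, edgeR adjusted p = 1.1e-06). Id3 and Trat1 fell by 1.24 and 0.95, and 3 further named genes, Gm11361, Trib2 and Wdr46, fell by 0.70, 0.69 and 0.67. Ifngr1 and Il18r1 had -0.62 and -0.38 and passed, but not with equal gates (-0.25 and -0.16), where Wdr46 did not pass either (-0.58) and Id3 was not tested. Calls were lost in 13 of the alternatives for Wdr46, 9 for Il18r1, 6 for Ifngr1, 4 for Trib2, 2 each for Id3, Trat1 and Gm11361 and 1 each for Il7r and Klf2. In the cytotoxic list 0 of 7 tested genes passed the threshold with unequal gates, and in the interferon response list 0 of 15 passed with either. Of all genes tested with unequal gates 2.3% were higher and 1.71% lower, so 0 calls in lists this short is near that share.

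The share of type 1 cells among CD4 Foxp3-negative cells was taken after each cell had been thinned to 2000 UMIs and gated again, since more UMIs find more markers. It was 2.56% in the active library and 2.67% in the onset library. In the vehicle libraries of days 2, 3 and 4 it was 4.34%, 2.41% and 2.16%, and in the PPCA libraries 4.12%, 1.49% and 7.78%. The PPCA library of day 4 was the only one above 5%, and PPCA lay above vehicle on 1 of 3 days. The day 2 difference turned with depth, at -0.22 points here, 0.48 when thinned to 1500 UMIs, 0.63 at 3000 UMIs and 0.73 with no thinning, so PPCA was then above vehicle on 2 of 3 days. The mean within-day difference was 1.5 percentage points (0.61 with at least 3 markers and 0.91 with 2 markers other than Ccl5), between 4.47% ± 3.16 for PPCA and 2.97% ± 1.19 for vehicle (SD, n = 3 each; exact two-sided sign-flip test p = 1, smallest possible 0.25). Without day 4 it was -0.57 points. As a share of all T cells the means were 0.839% ± 0.482 with PPCA and 0.740% ± 0.431 with vehicle (difference 0.099 points), and PPCA on day 4 (1.25%) was then nearly level with vehicle on day 2 (1.24%). The exact 95% Clopper-Pearson interval of the PPCA library of day 4, 6.65% to 9.05%, covers counting error only. In that library 12 dissociation and stress genes summed to 10550 CPM in type 1 cells, against 2637 to 6824 in the other 7, and their part in the share was not tested. Cells with no marker reached 10490 CPM there.

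**Figure D4:**
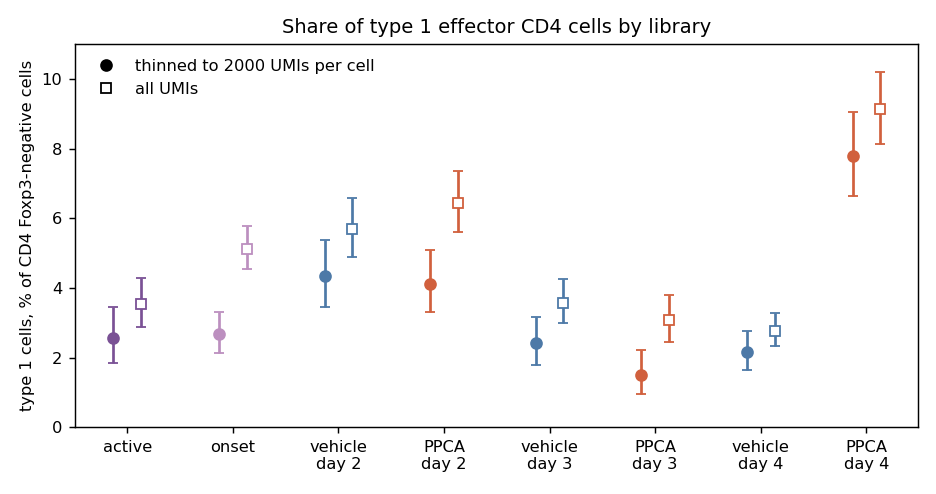
Share of type 1 cells among CD4 Foxp3-negative cells in each library, with 95% exact binomial intervals, after thinning to 2000 UMIs per cell (filled) and with all UMIs (open). The PPCA library of day 4 is highest at 7.78% thinned and 9.13% unthinned, and the other thinned shares lie between 1.49% and 4.34%.

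Without thinning the shares were 3.53% and 5.13% in the active and onset libraries, then 6.43%, 3.07% and 9.13% with PPCA, and 5.69%, 3.58% and 2.78% with vehicle. The Ifng-positive part of the thinned type 1 cells was 21.4% in the active library (9 of 42 cells) and 39.5% in the onset library. With PPCA it was 16.7%, 41.7% and 55.1% on days 2, 3 and 4, and with vehicle 21.3%, 31.4% and 45.0%. Both arms were highest on day 4, where the stress sum given above was also highest in both (10550 with PPCA and 6824 with vehicle, at most 4656 CPM in the other 6), and its part was not tested. The thinned PPCA value of day 3 is 10 of 24 cells, and with all UMIs the order of that day turned, with 33.8% for PPCA and 36.2% for vehicle.

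PPCA was compared with vehicle inside type 1 cells, with the day as block. Of 7554 genes tested, 4 were higher (0.053%) and 0 were lower (0%) at an adjusted p under 0.05 by edgeR, 565 at an unadjusted p under 0.05. DESeq2 called 0, with 103 at an unadjusted p under 0.05. Some settings called more genes, with 18 higher and 14 lower in cells of 3000 to 8000 UMIs. With Y-linked transcripts as a factor 38 were higher and 38 lower, in a fit with 1 residual degree of freedom. The 4 genes are given by library, and all 4 lost the call under DESeq2 and without the day block. Il21 and Cd200 lost it with doublets and other cells removed (adjusted p = 0.64 and 0.17), Il21 and Ccl4 with at least 2 Cd4 UMIs (0.056 and 0.19), Il21 in cells of 3000 to 8000 UMIs (0.18), Ccl4 with at least 3 markers (0.056) and Ccl4 and Ifit1 with 2 markers other than Ccl5 (0.13 and 0.098). Ifit1 was not tested without doublets, with at least 3 markers or with at least 2 Cd4 UMIs. The PPCA libraries share their days with vehicle, but on days 2 and 4 they differ in Y-linked transcripts, as stated above.

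Il21 had 41.1, 88.0 and 111 CPM under PPCA on days 2, 3 and 4 and 20.9, 16.2 and 33.7 under vehicle, so the arms did not overlap (log2 fold change 1.63, SE 0.25, edgeR adjusted p = 0.028). Its PPCA value of day 3 came from 37 UMIs in 8 cells, 18 of them in 1 cell. Cd200, which encodes a ligand of an inhibitory receptor, had 201, 207 and 231 CPM against 107, 98.6 and 123, again without overlap (0.92, SE 0.14, adjusted p = 0.028). For Il21 and Cd200, PPCA was higher on each of the 3 days. Ccl4 had 109, 92.8 and 617 CPM against 19.0, 67.5 and 118, with overlapping arms (1.87, SE 0.29, adjusted p = 0.028). In the PPCA library of day 2, 85 of its 106 Ccl4 UMIs lay in 1 cell. Ifit1, an interferon-induced gene, had 81.2, 38.1 and 14.9 CPM against 12.4, 14.9 and 3.48, so that the lowest PPCA and the highest vehicle library were nearly level (2.13, SE 0.34, adjusted p = 0.030). Its PPCA value of day 3 came from 16 UMIs in 4 cells, 8 of them in 1 cell. In cells with no marker Ifit1 had 88.0, 44.7 and 5.07 CPM under PPCA and 12.9, 8.50 and 6.09 under vehicle, so PPCA was above vehicle on days 2 and 3 and below it on day 4. Without day 3, the pair alike in Y-linked transcripts, 3 of the 4 genes lost the call, with edgeR adjusted p of 0.66 for Il21, 0.64 for Cd200 and 0.26 for Ifit1. Without day 2, Ifit1 lost it too (adjusted p = 0.26). Each fit without 1 day left only 1 residual degree of freedom.

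**Figure D5:**
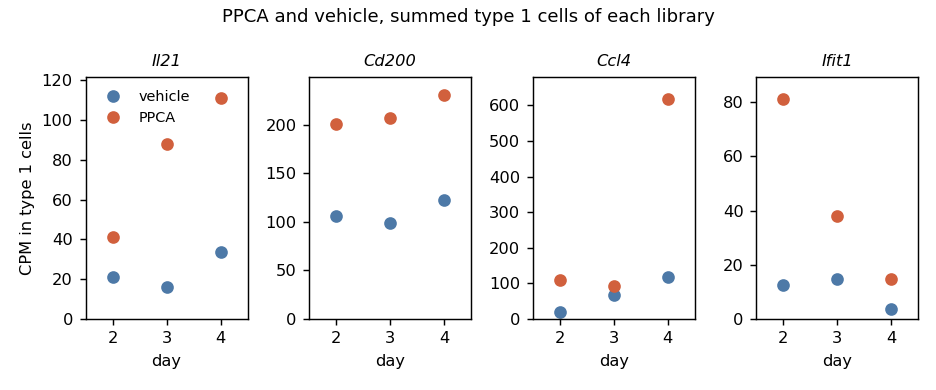
CPM of Il21, Cd200, Ccl4 and Ifit1 in the summed type 1 cells of each vehicle and PPCA library by day, 1 point per library and with no error bars. PPCA is above vehicle on each day for all 4 genes, and the arms overlap across days for Ccl4.

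Lists close to the targets of the 2 drugs held no called gene by the main test, but Mki67 passed in 3 of the alternatives. That test called 0.053% of all genes higher and 0% lower, so 0 calls in lists this short is near that share. Of the 15 tested p53 targets 0 passed, 11 had a positive log2 fold change and the median was 0.14, against -0.002 over all genes tested. Cdkn1a had 14.4, 4.76 and 58.7 CPM under PPCA and 4.75, 4.05 and 29.0 under vehicle (log2 fold change 1.07, SE 0.34, edgeR adjusted p = 0.47), and Mdm2 gave 0.12 (SE 0.23, adjusted p = 0.95). Of the 11 tested cell cycle genes 0 passed, 1 was positive and the median was -0.53. Mki67 had 3.08, 11.9 and 9.39 CPM under PPCA and 46.6, 14.9 and 26.7 under vehicle, without overlap (-2.03, SE 0.46, adjusted p = 0.19). It passed with no low-count filter (-2.04, adjusted p = 2.1e-05), without day 4 (-2.50, adjusted p = 0.00093) and with Y-linked transcripts as a factor (-2.16, adjusted p = 6.3e-05). In that order these fits called 44, 36 and 38 genes higher and 39, 41 and 38 lower, against 4 and 0 in the main test. The fits without day 4 and with Y-linked transcripts as a factor left only 1 residual degree of freedom. Groups of 676 genes (8.95%) did not overlap between the arms, so separate arms alone are common here. Those Mki67 values rest on 3 to 49 UMIs a library, and 30 of the 49 lay in 1 cell. Of 16 checkpoint genes 1 passed, Cd200, and 15 were positive, with Ctla4 at 0.80 (SE 0.15, adjusted p = 0.053). Ctla4 passed in 7 of the alternatives, at 0.72 to 1.03, among them those without day 2 and without day 4, each with 1 residual degree of freedom.

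Whether the PPCA difference in type 1 cells differed from that in cells with no marker was tested as an interaction. Of 11127 genes, 2 were higher (0.018%) and 3 lower (0.027%) by edgeR. At an unadjusted p under 0.05 there were 477, and DESeq2 called 0 (175 unadjusted). The 5 were Spp1, Itgb1, St6galnac1, Epsti1 and 1 T cell receptor segment. Itgb1 had 978, 899 and 1001 CPM under PPCA and 1527, 863 and 1054 under vehicle in type 1 cells, while in cells with no marker it had 110.3, 69.7 and 170.4 against 65.0, 58.3 and 68.9 (interaction -1.02 on the log2 scale, SE 0.16, edgeR adjusted p = 0.0013). PPCA was above vehicle on all 3 days in cells with no marker and on 1 of 3 in type 1 cells. The interaction was not called for Il21 (0.87, SE 0.47, adjusted p = 1), Cd200 (0.24, SE 0.23, adjusted p = 1), Ccl4 (1.38, SE 0.47, adjusted p = 0.77) or Ifit1 (0.04, SE 0.39, adjusted p = 1). For Ccl4 it passed with no low-count filter (1.36, adjusted p = 0.020) and with doublets and other cells removed (2.43, adjusted p = 0.0056). The calls were lost in 7 of the alternatives for St6galnac1, 4 for Epsti1, 3 for Spp1 and 1 for Itgb1, DESeq2.

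Active and onset diabetes had 1 library each, so their difference has no replicate check. Of 3154 genes reaching 50 CPM in either library, 36 were at least 2-fold higher in active (1.14%) and 24 in onset (0.761%), with counts under 3 raised to 3. The 3 highest ratios were those of the haemoglobin genes Hbb-bs, Hba-a1 and Hbb-bt, with 1670, 895 and 325 UMIs in the active library and 0 in onset. Of 2890 globin UMIs in its 101 cells, 2886 lay in 1 cell, so these ratios describe that cell. Uvssa and Elp2 followed, with log2 ratios of 1.80 and 1.70. On the onset side Hsph1, a heat shock protein gene, had 55.4 CPM in active and 224.5 in onset (log2 ratio -2.02), and Fos, an immediate early gene, 147 and 413 (-1.49). The cells with no marker of the same libraries had log2 ratios of -1.76 for Hsph1 and -1.57 for Fos. P4ha1, Gm10076 and Gm26740 completed the lowest 5, at -1.58, -1.48 and -1.46.

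The authors' deposited table of cluster genes has a cluster named CD4 Th1, and it lists 82 genes and none of the 6 markers. Of the 81 of its genes tested here, 12 were higher in type 1 cells than in cells with no marker (14.8%) and 20 lower (24.7%), beside 16.4% and 16.3% of all genes tested, and its leading genes were interferon-induced ones such as Ifi27l2a and Isg15. The authors' cluster CD4 Th17, led by Itgb1, Tbc1d4, Ahnak, S100a6 and Maf, listed Cxcr3 and Ifng in the authors' deposited table. Of its 424 genes tested outside the rule, 359 were higher in type 1 cells (84.7%) and 9 lower (2.12%). The CD8 TRM TEM cluster of the authors' deposited table listed all 6 markers, and of its 676 genes tested outside the rule 533 were higher (78.9%) and 10 lower. Genes of the authors' CD4 Treg cluster, led by Ikzf2, Izumo1r, Ctla4, Tnfrsf4 and Rgs1, were higher for 333 of 562 tested (59.3%) and lower for 63 (11.2%), in cells kept from the Treg gate only by the lack of a Foxp3 UMI. The authors chose these lists on the same samples, so they are not independent of the comparison.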

How the data were processed

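Single-cell 3′ RNA libraries (10x Genomics, version 2 chemistry) were analysed from 8 samples. The deposited matrices hold UMI counts per gene and barcode; the authors used Cell Ranger 6.1.2 and Seurat, per the submitters' processing notes, and the file headers name cellranger 6.0.0. A table of cluster genes with the authors' average log2 fold changes was used only for which genes it lists. The genome build the authors used is not given in the sources used here.

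Cells were kept and gated as the report states, and doublets were scored (the top 0.8% per 1000 barcodes removed as an alternative). UMIs were summed per library and cell set, with at least 20 cells per sum. edgeR 4.0.16 (quasi-likelihood test, TMM, filterByExpr) tested the sums, with Benjamini-Hochberg adjustment over all genes tested and a threshold of 0.05; the SE is the log2 fold change over the square root of F. DESeq2 1.42.0 was an alternative. CPM are UMIs of a gene scaled to a common total of the sum. The fits were tested on simulated data. The day served as the pair because it is in the labels of both arms, which left 2 residual degrees of freedom. Deviations of same-day PPCA and vehicle libraries from their arm means correlated only weakly on days 2 and 3. The correlations were 0.153, 0.131 and 0.391 over 7554 genes on days 2, 3 and 4. They are tied to each other, since the deviations in an arm are taken from its own mean, and do not establish the pairing. Named genes were the 12 highest and 12 lowest fold changes of the main comparison and 6 of each elsewhere, past the threshold, with at least 20 CPM on average and 1 direction in all libraries or days (for active against onset, 5 each way at 50 CPM or more), and members of 22 lists. The members, lists and tests were chosen with earlier results of these data known. Some genes of the lists are not reported here.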

Additional observations from a re-analysis of the deposited data

Results flagged for a closer look

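For 4 genes the difference between PPCA and vehicle was not the same in type 1 cells as in cells with no marker, by an interaction term (edgeR), with log2 values of 5.56 for Spp1, -1.02 for Itgb1, -1.98 for St6galnac1 and -0.81 for Epsti1. Spp1, the osteopontin gene, rested on the PPCA library of day 3, with 234 UMIs there in 5 cells, 122 of them in 1 cell, and without day 3 its value was 1.46 (edgeR adjusted p = 0.997). St6galnac1 had 32.9, 9.52 and 20.3 CPM under PPCA and 53.2, 36.5 and 29.0 under vehicle in type 1 cells, against 6.59, 6.35 and 12.1 and 5.27, 3.89 and 2.44 in cells with no marker. Epsti1 had 126, 112 and 84.5 CPM against 205, 134 and 161 in type 1 cells, and 94.5, 67.5 and 45.2 against 62.6, 60.3 and 55.3 in cells with no marker. All 4 lost the call under DESeq2, and Itgb1 kept it under each other alternative run.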

How the results depend on the processing

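Counts are genes higher, then genes lower, and the cause of each change was not tested. The requirements for at least 2 Cd4 UMIs and for 2 markers other than Ccl5, or other than Ifng, were chosen after seeing the data. Against cells with no marker, 896 genes were lower without the library block and 1076 without the 4 libraries with Y-linked transcripts, against 1665. Against CD8 cells the counts were 578 and 566 with at least 3 markers, 762 and 668 without the block and 680 and 605 without those 4 libraries, and 1766 were lower with no low-count filter. For Ifng-positive cells they were 68 and 45 with 2 markers other than Ifng in both arms, 69 and 30 with at least 2 Cd4 UMIs, 16 and 5 with at least 3 markers, 47 and 43 in cells of 3000 to 8000 UMIs, 30 and 4 without the block and 69 and 22 without those 4 libraries. There, 66 were higher by DESeq2, 53 were lower with markers other than Ccl5, and 50 were lower without doublets and other cells. Libraries under 20 cells dropped out of some of these fits. Leaving out 1 library gave 86 to 138 higher and 50 to 121 lower.

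PPCA was set against vehicle without the replicate block (day pairing) as well, which gave 0 genes higher, as did DESeq2. It gave 1 higher with at least 2 Cd4 UMIs and 1 without doublets and other cells, 18 and 14 in cells of 3000 to 8000 UMIs, 44 and 39 with no filter and 38 and 38 with Y-linked transcripts as a factor. There were 3 lower with at least 3 markers and 3 with markers other than Ccl5. Leaving out 1 day, which left 1 residual degree of freedom, gave 1 to 36 higher and 0 to 41 lower. The interaction gave 1 and 1 with markers other than Ccl5, 1 and 1 with at least 3 markers, 0 and 0 by DESeq2, 5 and 12 with no filter, and 2 to 4 and 5 to 8 without 1 day. The share difference was -0.57 to 2.71 points without 1 day, negative without day 4, with an exact permutation p of 0.70 without the replicate block. Active against onset gave 85 and 80 genes with at least 3 markers, 73 and 55 without doublets and other cells, and 77 and 45 in cells of 3000 to 8000 UMIs.

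Some single values changed sign. Mki67 against CD8 cells was -0.0063 in cells of 3000 to 8000 UMIs and -0.055 without the 4 libraries, where Cd40lg against cells with no marker was -0.031. Mdm2 under PPCA was -0.047 with at least 2 Cd4 UMIs, and -0.12 to 0.32 without 1 day. The interaction for Cd200 was -0.15 to 0.83 without 1 day. For Ifit1 it was -0.075 without doublets and other cells, -0.28 with at least 2 Cd4 UMIs, -0.12 with markers other than Ccl5 and -0.39 to 0.52 without 1 day. Of the single-gene values against cells with no marker, 1156 kept direction and call, 4 lost the call and 8 gained one. Against CD8 cells the numbers were 429, 2 and 17, and for Ifng-positive cells 376 and 64 lost. For PPCA they were 63, 20 and 10, and for the interaction 74, 15 and 2. Depth limits low genes: a cell's median was 3875 to 6036 UMIs.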
